A study of Mus musculus with 14 samples.

Results

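The regions described are Brg1 peaks that appeared with 2 forms of EBF1 that carry a deletion and with neither full-length EBF1 nor an empty vector. They are the peaks of the dC list from fetal liver cells, on chromosomes 1 to 19, X and Y, that shared at least 1 bp with a dPLD peak and no base with a wt or an empty-vector peak. There were 1936 such regions, called members here, which is 6.39% of the 30301 dC peaks. They met 1945 dPLD peaks, or 7.06% of the 27550 in that list, and the 9 peak lists of the series held 196179 peaks in all.

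The study asks how the C-terminal domain (CTD) of EBF1 bears on Brg1 recruitment to chromatin. Brg1 was profiled by ChIP-seq in C57BL/6 fetal liver cells lacking EBF1 (EBF1 -/-, c-kit+ lymphocyte progenitors, taken from embryos 16 to 18 days old), which were transduced with a pMys retroviral vector carrying GFP and kept for 14 to 20 days on OP9 stromal cells with IL7, SCF and Flt3. The vector carried EBF1 without its CTD (dC), EBF1 without residues 480 to 520 (dPLD), EBF1 whose CTD was exchanged for the TA1 domain of GATA3 (F-GATA3), full-length EBF1 (wt), or no EBF1 (empty). Brg1 and EBF1 were also profiled in pro-B cells transformed by Abelson murine leukaemia virus (A-MuLV), of EBF1 fl/fl origin, in which endogenous EBF1 had been replaced by dC or by wt. Crosslinking differed between the systems, with 2% formaldehyde and EGS in fetal liver cells, 1% and EGS for Brg1 in A-MuLV cells, and 1% without EGS for EBF1, so that fold levels are not compared between them. All fetal liver groups thus lacked endogenous EBF1, and any EBF1 in them came from the vector. The labels place the dC and dPLD cells in a partial block before the pro-B stage, the F-GATA3 and wt cells at the pro-B stage and the empty-vector cells in a block before it, so the form of EBF1 and the stage of the cells cannot be told apart in the fetal liver lists. The dC and wt A-MuLV cells are both labelled pro-B.

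EBF1 is a transcription factor that specifies the B lineage and can bind its sites in closed chromatin. Its CTD holds a prion-like, low-complexity stretch, here called PLD. Brg1, encoded by Smarca4, is the ATPase of BAF complexes, which move or evict nucleosomes and so open enhancers and promoters.

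Each group had 1 library, so no spread between replicates could be measured and nothing was tested across conditions. A member counted as called in another list where the intervals shared at least 1 bp. Shares of regions carry exact Clopper-Pearson 95% intervals in parentheses, which cover counting error only. The fold enrichment of a peak was set by the authors as ChIP pileup at the summit over local background, and serves to describe peaks within a list. Sequencing depth is unknown, so a missing peak does not show that Brg1 was absent. The fetal liver lists ended at a −log10 q near 10.0, while the A-MuLV Brg1 lists reached down to 1.33 (dC) and 1.37 (wt), so that shares in A-MuLV lists and in the F-GATA3 list stand on different thresholds.

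Some members lay at promoters, and 4 of these promoters, chosen after their values were seen, are printed here because they show members with and without an EBF1 peak in A-MuLV cells and with and without letters of an EBF core. The sequences are RefSeq promoter windows on GRCm38.p6, from 250 bases before to 50 after the transcription start, 5′ to 3′ on the gene's strand, with each match to the EBF core CCCNNGGG in capitals.
Sap30bp, chr11:115933409-115933708, + strand: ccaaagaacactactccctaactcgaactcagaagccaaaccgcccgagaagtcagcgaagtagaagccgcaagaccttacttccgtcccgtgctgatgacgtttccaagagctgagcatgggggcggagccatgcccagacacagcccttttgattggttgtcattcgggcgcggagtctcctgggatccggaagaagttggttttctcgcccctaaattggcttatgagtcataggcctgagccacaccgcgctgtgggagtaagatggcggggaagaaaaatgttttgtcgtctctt
Spata13, chr14:60634455-60634754, + strand: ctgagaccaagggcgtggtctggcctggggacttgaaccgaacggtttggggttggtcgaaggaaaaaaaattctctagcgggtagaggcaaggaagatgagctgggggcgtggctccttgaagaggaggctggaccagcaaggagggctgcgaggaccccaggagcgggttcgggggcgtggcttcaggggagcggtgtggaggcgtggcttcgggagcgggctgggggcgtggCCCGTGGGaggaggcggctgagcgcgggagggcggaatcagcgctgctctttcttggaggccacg
Aldoc, chr11:78322823-78323122, + strand: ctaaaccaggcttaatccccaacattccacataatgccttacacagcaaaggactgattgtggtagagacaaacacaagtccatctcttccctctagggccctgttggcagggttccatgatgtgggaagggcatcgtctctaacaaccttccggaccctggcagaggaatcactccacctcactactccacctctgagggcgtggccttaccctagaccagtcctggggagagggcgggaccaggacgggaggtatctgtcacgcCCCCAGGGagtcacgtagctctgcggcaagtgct
Septin8, chr11:53519486-53519785, + strand: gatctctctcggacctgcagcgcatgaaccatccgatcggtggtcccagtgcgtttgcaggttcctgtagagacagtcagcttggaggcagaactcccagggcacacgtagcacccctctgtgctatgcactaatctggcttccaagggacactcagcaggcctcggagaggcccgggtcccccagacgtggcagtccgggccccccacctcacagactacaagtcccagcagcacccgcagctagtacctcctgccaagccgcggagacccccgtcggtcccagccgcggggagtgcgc

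The Sap30bp window lay under a member with a Brg1 fold of 5.14 with dC and 5.47 with dPLD. In A-MuLV cells that region held an EBF1 peak of fold 23.5 with dC and 9.67 with wt, overlapping the printed window, and Brg1 peaks of fold 6.56 with dC and 7.44 with wt. The window nevertheless held no match to the core. The Spata13 window, at a gene for a guanine nucleotide exchange factor, held the core just before the start. Its member had folds of 4.24 with dC and 4.78 with dPLD, and met an A-MuLV EBF1 peak with dC (12.0) that lay outside the window. The Aldoc window, at the gene for the glycolytic enzyme aldolase C, held the core just after the start. That member had folds of 8.05 with dC and 5.84 with dPLD and no peak in any A-MuLV list. The Septin8 window, at a gene for a cytoskeletal GTPase, held no core. Its member had folds of 11.1 with dC and 5.05 with dPLD and an A-MuLV Brg1 peak with dC (5.18) but not with wt. Each of the 4 windows lay wholly within its member, so wt and empty-vector peaks were absent from it by the choice of the regions. None of the 4 overlapped an F-GATA3 peak, whereas 40.2% of members at promoters had one.

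Members were modest peaks. Their median fold was 5.90 with dC (3.37 to 17.2) and 5.50 with dPLD (3.29 to 20.1), against a median of 7.14 over all dC peaks. Their median width was 867.5 bp, against 1248 bp over all dC peaks, and their median −log10 q with dC was 15.7, against 25.0. Only 134 members had a −log10 q of at least 20 with both dC and dPLD. Their dC and dPLD summits were close, with a median distance of 52 bp. The members were chosen by the presence of peaks in the dC and dPLD lists and their absence from the wt and empty lists, so these values describe them only.

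No member touched a wt peak, by the choice of the regions. The nearest wt peak lay at a median of 6765.5 bp and the nearest empty-vector peak at 15424.5 bp. A wt peak lay within 1 kb of 241 members (12.4%, 11.0 to 14.0) and within 10 kb of 1163 (60.1%, 57.9 to 62.3). For dC peaks with no dPLD, wt or empty-vector peak, those shares were 7.33% (6.42 to 8.32) and 52.7% (50.9 to 54.5). At the edge of the choice, 6 members missed a wt peak by 50 bp or less, the nearest by 1 bp, and none came so close to an empty-vector peak. The smallest overlap with a dPLD peak was 17 bp, 2 members overlapped by 50 bp or less, and 5 other dC peaks without wt or empty-vector peaks missed a dPLD peak by 50 bp or less.

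3 other classes of dC peaks served for comparison. The first, dC alone, held 2975 peaks with no dPLD, wt or empty-vector peak. The next held 624 peaks shared by dC, dPLD and the empty vector without wt. The last held 12700 peaks shared by dC, dPLD and wt without the empty vector, the class that full-length EBF1 also acquired. Because folds differed between the classes, their shares were also weighted to the fold distribution of the members in 5 bins. The match is coarse, since the highest bin had no upper limit of fold for the other classes.

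About 1 member in 4 was also called with F-GATA3. These were 490 regions (25.3%, 23.4 to 27.3), against 69.8% of all dC peaks (59.2% when weighted to the members' folds). The share was 8.07% for dC alone (7.79% when weighted to the members' folds), 30.8% for dC, dPLD and empty, and 82.6% (77.9% weighted) for dC, dPLD and wt. Members were thus called with F-GATA3 more often than dC-alone peaks and far less often than the peaks that wt also had. The gap remained after this coarse weighting. In the lowest bin of fold the shares were 31.5% (members), 10.5% (dC alone) and 70.4% (dC, dPLD and wt). The level depended on the lists, since the members' share was 40.0% with fetal liver lists of equal length and 38.1% for the 134 members with a −log10 q of at least 20 in both lists. F-GATA3 and wt cells share the pro-B label, and the part of the stage in this result was not tested. Among the 4911 dC peaks with no wt or empty-vector peak, 1446 were called with dPLD and not F-GATA3 and 240 with F-GATA3 and not dPLD, so that dPLD took 85.8% (84.0 to 87.4) of the peaks found with exactly 1 of them. Over all dC peaks that split was 84.5%, inside the interval, so the preference for dPLD over F-GATA3 was not larger among the new peaks than in the dC list as a whole.

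**Figure D1:**
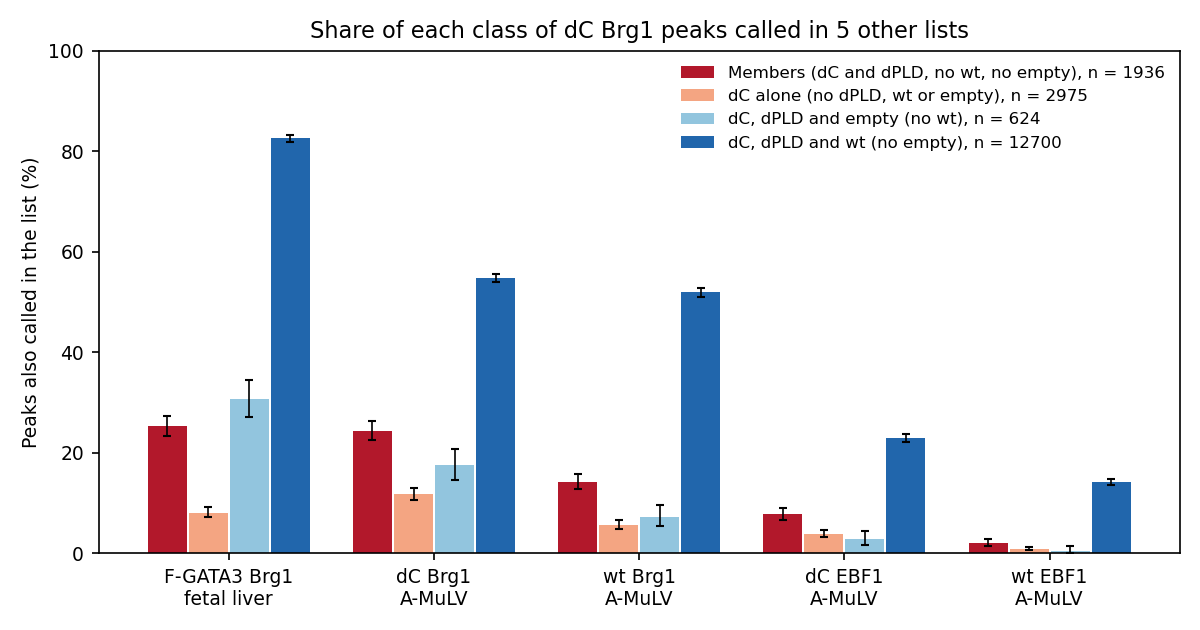
Share of each class of dC fetal liver Brg1 peaks (y axis, %) that overlapped a peak of 5 other lists (x axis), with exact 95% intervals for counting error. Members reached 25.3% with F-GATA3 and 24.4% in A-MuLV cells with dC, above the dC-alone peaks and below the peaks shared with wt.

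In A-MuLV cells, Brg1 was called at 472 members with dC (24.4%, 22.5 to 26.4) and at 275 with wt (14.2%, 12.7 to 15.8). The shares of all dC peaks were 50.4% (dC) and 45.4% (wt), or 41.9% and 38.6% when weighted to the members' folds. They were 11.8% (dC) and 5.68% (wt) for dC alone and 17.5% and 7.21% for dC, dPLD and empty. For dC, dPLD and wt they were 54.8% (dC) and 52.0% (wt). Among members, 167 were called with both forms, 305 with dC only, 108 with wt only and 1356 with neither. Of the 413 called with exactly 1 form, 73.8% (69.3 to 78.0) were called with dC, against 63.5% over all dC peaks. The split was 76.1% (71.3 to 80.5) for dC alone, 79.1% (70.3 to 86.3) for dC, dPLD and empty, and 56.6% (54.7 to 58.4) for dC, dPLD and wt. The lean towards dC in cells that were not used to choose the regions was thus higher among members than among peaks shared with wt, and overlapped in its interval with the other classes without a wt peak. Both A-MuLV lists were of nearly equal length, with 24420 peaks for dC and 24493 for wt, and the cells of both carry the pro-B label. With fetal liver lists of equal length the shares of members were 47.0% with dC and 35.8% with wt, and the split was 71.7% (66.4 to 76.6), against 68.7% over all dC peaks. The interval of the split lay above the value over all dC peaks in 5 of 8 alternatives. Requiring a −log10 q of at least 10 in the A-MuLV lists left 4.08% of members called with dC and 1.91% with wt, at a split of 73.9% (63.4 to 82.7), while the split over all dC peaks turned to 42.2%. Under that threshold the peaks shared with wt had 16.1% with dC and 19.9% with wt, and dC alone had 1.24% with dC and 0.538% with wt.

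The lean towards dC grew with the fold of the fetal liver peak. In the 5 bins from low to high dC fold, the share of members called in A-MuLV cells with dC was 28.8, 20.9, 20.1, 21.1 and 31.4%, and with wt it was 24.5, 14.8, 12.1, 10.0 and 10.0%. In the lowest bin, with folds of 3.37 to 5.07, 49 members were called with dC only and 33 with wt only. In the highest bin, with folds of 7.46 to 17.2, 96 were called with dC only and 13 with wt only, which is 88.1% (80.5 to 93.5). The split also climbed with fold in the other classes, to 92.9% for dC alone and to 67.1% for dC, dPLD and wt, so the trend was not particular to members. The F-GATA3 share of members had no such trend, at 31.5, 22.1, 24.5, 25.4 and 23.4%. Over all dC peaks the F-GATA3 share was 47.2, 38.7, 53.5, 67.2 and 89.2% in the same bins. The A-MuLV Brg1 shares of all dC peaks were 36.4, 25.8, 35.8, 45.1 and 66.5% with dC. With wt they were 36.2, 23.6, 33.1, 42.0 and 58.3%. Members thus lay furthest below all dC peaks in the highest bin.

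**Figure D2:**
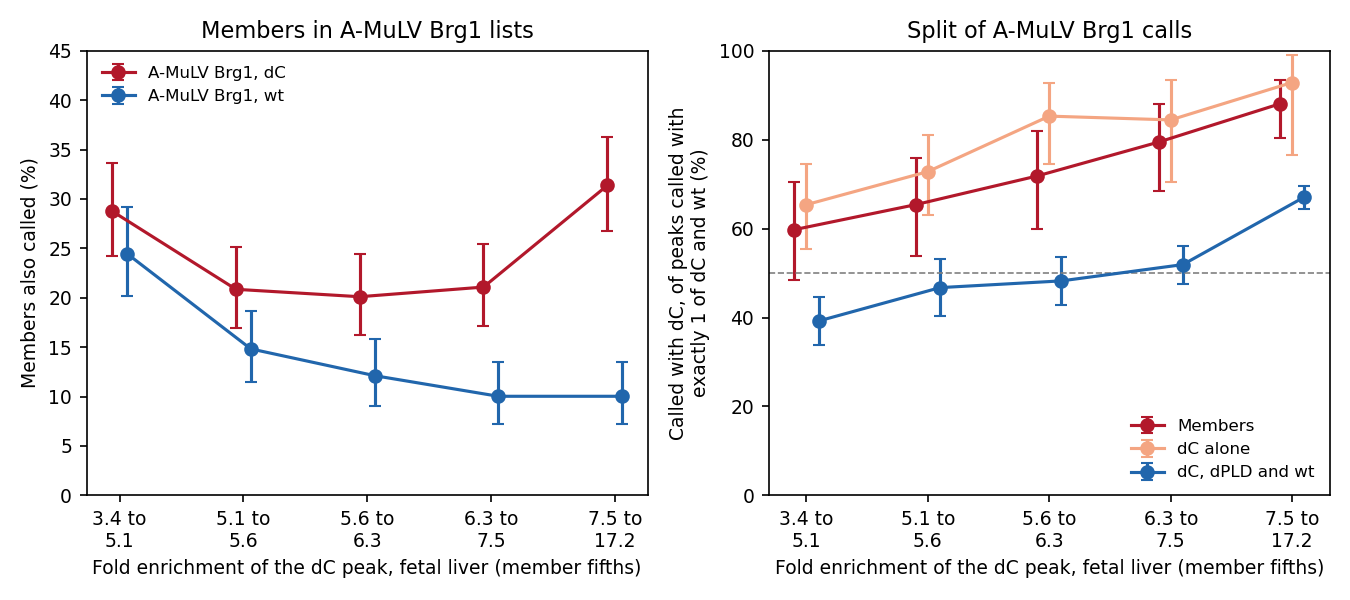
Left, the share of members (y axis, %) called in A-MuLV cells with dC or wt, by the fold enrichment of the fetal liver dC peak in 5 bins of 372 to 398 members (x axis). Right, of the peaks called with exactly 1 of dC and wt in A-MuLV cells, the share called with dC (y axis, %), for members and 2 comparison classes; bars are exact 95% intervals, and members reach 88.1% in the highest bin.

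Among members, F-GATA3 and A-MuLV calls were partly joined. The same comparison was not made for other dC peaks, so it is not shown to be particular to members. Members with an F-GATA3 peak were called in A-MuLV cells in 29.8% of cases with dC (25.8 to 34.1) and in 21.6% with wt (18.1 to 25.5). Members without one were called in 22.5% with dC (20.4 to 24.8) and in 11.7% with wt (10.1 to 13.5). The split towards dC was 69.2% (72 against 32 regions) with an F-GATA3 peak and 75.4% (233 against 76) without, and their intervals overlapped. By combination of these 3 Brg1 lists, 1044 members (53.9%) were in none, against 22.8% of all dC peaks. A further 312 (16.1%) were in F-GATA3 only and 233 (12.0%) in A-MuLV dC only. These single-list groups were not counted over all dC peaks, so they are not shown to be particular to members. Counting the EBF1 lists too, 1007 members (52.0%, 49.8 to 54.3) were in none of the 5 other lists, against 22.1% of all dC peaks. The share in none of the 5 was 77.2% for dC alone, 55.3% for dC, dPLD and empty, and 9.87% for dC, dPLD and wt.

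**Figure D3:**
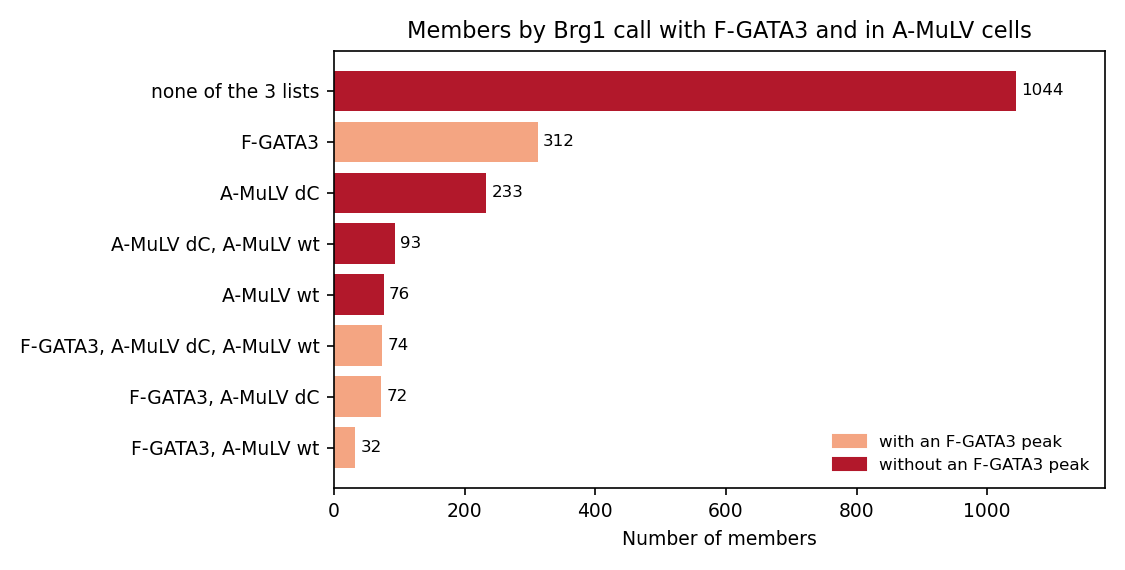
Number of members (x axis) in each combination of Brg1 calls with F-GATA3 in fetal liver cells and with dC and wt in A-MuLV cells (y axis). Most members, 1044 of 1936 (53.9%), were in none of the 3 lists, against 22.8% of all dC peaks. F-GATA3 alone was the next largest group, with 312, and the other combinations were not counted over all dC peaks.

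EBF1 itself was called in A-MuLV cells at 150 members with dC (7.75%, 6.60 to 9.03) and at 41 with wt (2.12%, 1.52 to 2.86). The shares of all dC peaks were 18.2% (dC) and 10.1% (wt), or 14.4% and 7.89% when weighted to the members' folds. The dC-alone class had 3.90% with dC and 0.908% with wt, and the class shared with wt had 22.9% with dC and 14.2% with wt. Of the members with EBF1 in exactly 1 list, 112 had it with dC and 3 with wt, a split of 97.4% (92.6 to 99.5). The split was 93.2% over all dC peaks, inside that interval, and the EBF1 list of dC is the longer, with 11147 peaks against 6155 for wt. Where EBF1 was called with dC, Brg1 was called at 65.3% of members in A-MuLV cells with dC (57.1 to 72.9). In A-MuLV cells with wt, Brg1 was called at 32.7% of these regions (25.2 to 40.8), whether or not EBF1 was called there with wt. Without an EBF1 call with dC those shares were 20.9% with dC and 12.7% with wt. In the class shared with wt, peaks with the dC EBF1 call had Brg1 in 79.8% with dC and in 77.6% with wt. Over all dC peaks these shares were 83.3% with dC and 79.3% with wt. The dC-alone class resembled the members, at 48.3% with dC and 26.7% with wt. These shares rest on an EBF1 call with dC. Of those 150 members, only 38 (25.3%) also had an EBF1 peak with wt, against 1673 of 2908 in the class shared with wt. At the 41 members with an EBF1 peak with wt, Brg1 was called at 65.9% with dC (49.4 to 79.9) and at 61.0% with wt (44.5 to 75.8), with overlapping intervals. The F-GATA3 share did not differ beyond counting error, at 24.0% of members with EBF1 (17.4 to 31.6) and 25.4% of those without (23.4 to 27.5).

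The 10 members with the highest dC folds had no A-MuLV peaks. The highest was an intergenic peak whose nearest coding gene was Hs6st1, which encodes a heparan sulphate sulfotransferase, with folds of 17.2 with dC and 8.02 with dPLD. It was followed by Chl1, a neural cell adhesion molecule (16.6 with dC, 10.3 with dPLD), and Syndig1, a synaptic membrane protein (16.2 with dC, 7.39 with dPLD). Ankrd55 had 15.4 with dC, 7.61 with dPLD and 4.99 with F-GATA3. Car12, a membrane carbonic anhydrase, had 15.0 with dC, 8.27 with dPLD and 6.78 with F-GATA3. Krtap13, for a keratin-associated protein, had 14.6 with dC and 13.5 with dPLD. Crtc3, a CREB coactivator, had 14.5 with dC, 5.62 with dPLD and 6.30 with F-GATA3. Wnt5b, a Wnt ligand, had 14.0 with dC, 14.2 with dPLD and 6.99 with F-GATA3, and a further member there had 5.09 with dC, 5.07 with dPLD and an A-MuLV EBF1 peak with dC (6.85). Urb2, a nucleolar protein, had 13.9 with dC, 8.73 with dPLD and 5.77 with F-GATA3, and Vax2, a homeobox factor of the eye, had 13.8 with dC and 7.52 with dPLD. Of these 10 highest members, 5 were also called with F-GATA3. In the highest bin of dC fold, 23.4% of members and 89.2% of all dC peaks had an F-GATA3 peak. An A-MuLV Brg1 peak with dC was found there at 31.4% of members and 66.5% of all dC peaks. With wt these shares were 10.0% and 58.3%. Nrp1, a semaphorin co-receptor, equalled Vax2 in fold, and it had an F-GATA3 peak. A name here gives the nearest coding gene only, and the Hs6st1 peak lay 381673 bp from it.

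Members with the strongest A-MuLV peaks were a different group of genes. The strongest Brg1 and EBF1 peaks lay near Dusp2, a phosphatase of MAP kinases in lymphocytes. That member had fetal liver folds of 5.77 with dC and 4.83 with dPLD. In A-MuLV cells its Brg1 fold was 20.0 with dC and 23.1 with wt, and its EBF1 fold 39.7 with dC and 25.1 with wt. Odf1, for a sperm tail protein, had a fetal liver fold of 13.3 with dC and 6.26 with dPLD, and in A-MuLV cells a Brg1 peak of 14.4 and an EBF1 peak of 35.9 with dC and neither with wt. Chchd6, of the mitochondrial inner membrane, followed the same pattern, with fetal liver folds of 9.92 with dC and 7.03 with dPLD, and A-MuLV Brg1 (12.3) and EBF1 (14.0) peaks with dC only. Gnb4, a G protein beta subunit, had fetal liver folds of 7.63 with dC and 9.92 with dPLD A-MuLV Brg1 folds of 14.2 with dC and 10.3 with wt, and EBF1 folds of 16.7 with dC and 8.88 with wt. Cdk6, the cyclin-dependent kinase that drives progenitors into the cycle, had 11.3 with dC, 10.4 with dPLD and 5.52 with F-GATA3, and A-MuLV Brg1 folds of 13.3 with dC and 10.4 with wt.

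Further members were named for their EBF1 folds in A-MuLV cells. Cish, an inhibitor of cytokine receptor signalling, had fetal liver folds of 5.18 with dC and 6.15 with dPLD, A-MuLV Brg1 folds of 5.53 with dC and 12.5 with wt, and A-MuLV EBF1 folds of 9.78 with dC and 15.4 with wt. Adsl, a purine synthesis enzyme, had 4.60 with dC and 4.72 with dPLD, A-MuLV Brg1 folds of 4.14 with dC and 3.85 with wt, and EBF1 folds of 21.2 with dC and 23.5 with wt. Lyst, a lysosomal trafficking regulator, had 5.75 with dC, 7.90 with dPLD and 7.90 with F-GATA3, A-MuLV Brg1 folds of 9.32 with dC and 10.2 with wt, and EBF1 folds of 19.2 with dC and 14.1 with wt. Tbkbp1, an adaptor of the kinase TBK1, had 5.55 with dC and 5.10 with dPLD, an A-MuLV Brg1 peak with dC only (6.91), and EBF1 folds of 14.0 with dC and 13.6 with wt. Baiap2l1 and Dnaic2, a membrane-bending adaptor and a dynein chain, each had a fetal liver fold of 7.48 with dC. Their EBF1 folds were 23.3 and 22.7 with dC, against 8.62 and 11.8 with wt, both had A-MuLV Brg1 with dC only, and both had an F-GATA3 peak.

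Members were spread over many genes, with 1609 distinct nearest coding genes, of which 1350 had 1 member and 41 had at least 3. In all, 220 members (11.4%) lay within 10 kb of another. Hivep3, which encodes a large zinc finger protein of the Schnurri family, held the most inside its body, 10 members with dC folds of 4.65 to 12.7. Within 10 kb of this gene (chr4:119733759-120138045) there were 22 peaks with dC, 22 with dPLD, 12 with F-GATA3, 14 with wt and 2 with the empty vector. The A-MuLV lists, which played no part in the choice, had 18 Brg1 peaks there with dC and 4 with wt, and 10 EBF1 peaks with dC and 2 with wt. The highest A-MuLV folds there were 12.4 with dC and 9.68 with wt for Brg1, and 25.7 with dC and 8.36 with wt for EBF1. The peaks with these highest folds lay outside the members. Brg1 was called at 5 of the 10 members in A-MuLV cells with dC, at 1 with wt, and at 3 in fetal liver cells with F-GATA3. Over all dC peaks those shares were 50.4% with dC, 45.4% with wt and 69.8% with F-GATA3. The lean towards dC was seen over all A-MuLV peaks at the gene and is not shown to be particular to its members. No member there met an EBF1 peak of either A-MuLV list.

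**Figure D4:**
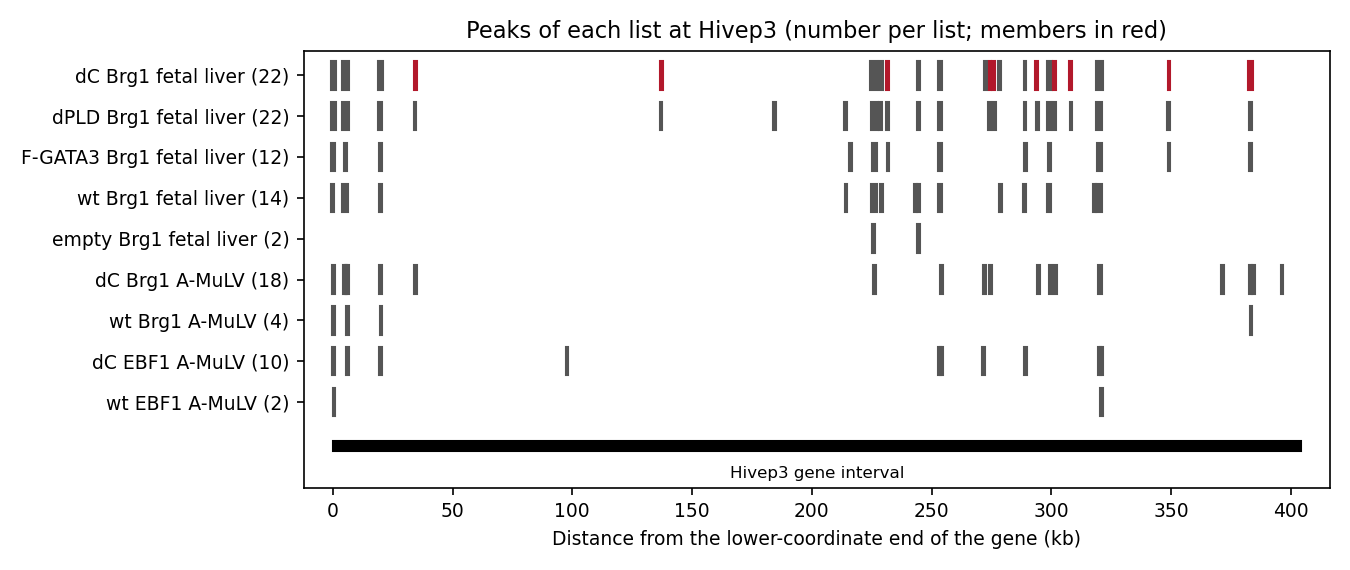
Peaks of the 9 lists (rows, with the number of peaks) along Hivep3 and 10 kb on either side, by distance from the lower-coordinate end of the gene (x axis, kb); members are red, and narrow peaks are widened to be visible. The A-MuLV rows hold 18 Brg1 peaks with dC against 4 with wt.

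The lean at Hivep3 was not shared by every gene with many members. Chd7, a chromatin remodeller, had 5 members, 10 dC, 9 dPLD, 7 F-GATA3, 4 wt and 2 empty-vector peaks, and in A-MuLV cells 10 Brg1 peaks with dC and 7 with wt. Iqsec1, an exchange factor for ARF6, had 5 members and in A-MuLV cells 8 Brg1 peaks with dC and 11 with wt. Foxp1, a forkhead factor needed in early B cells, had 5 members, and in A-MuLV cells 28 Brg1 peaks with dC and 36 with wt. A further 10 members had Zfp386 as nearest coding gene but lay in the immunoglobulin heavy chain locus Igh, up to 1240200 bp away from it. Igh was singled out after its values were seen. Across the locus (chr12:113258768-116009954) there were 13 members, or 10.1% of its 129 dC peaks, against 6.39% across the dC list. No interval was computed for that share, so members are not shown to favour the locus. Of the 13, 6 were called with F-GATA3, against 69.8% of all dC peaks. In A-MuLV cells 9 were called with dC and 6 with wt, against 50.4% (dC) and 45.4% (wt) of all dC peaks. The same calls were not counted for the other dC peaks of the locus.

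Members were distal more often than dC peaks in general. A RefSeq promoter window was overlapped by 224 of the 1877 members outside chromosome 18, for which no window was used (11.9%, 10.5 to 13.5), against 29.1% of all dC peaks. The share was 8.33% for dC alone and 30.6% for dC, dPLD and wt. The median distance to a transcription start was 12937 bp, against 8287 bp over all dC peaks, and 57.5% of members overlapped a gene body, against 66.1%. Starts were also missing for some genes on other chromosomes, so that distances can be too long and promoter shares too low. At Chd7, a gene of 178048 bp, a member over an end of the gene lay 270025 bp from the nearest start used. Members at promoters were called more often in every Brg1 list, at 40.2% with F-GATA3 (33.7 to 46.9), 36.6% in A-MuLV cells with dC (30.3 to 43.3) and 32.6% with wt (26.5 to 39.2). Members elsewhere, those on chromosome 18 among them, had 23.4% with F-GATA3, 22.8% with dC and 11.8% with wt. In A-MuLV cells the dC and wt shares of members thus lay close together at promoters and apart elsewhere. Members at promoters were also wider, with a median of 1082 bp against 839.5 bp elsewhere. The same shares were not computed for other dC peaks, so the contrast is not shown to be particular to members.

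Over protein-coding genes, 231 promoter windows of 209 genes met a member. The EBF letters TCCCNNGGG, which contain the core, were in 6.49% (3.68 to 10.5) of these windows, searched on both strands, against 7.26% of all 21237 coding promoters. The core CCCNNGGG was in 14.7% (10.4 to 20.0), against 15.6%, so neither stood out from promoters at large. The ETS letters CCGGAAGT were in 5.63% (3.03 to 9.43) of member windows, against 5.15% of all promoters and 11.2% (10.3 to 12.2) of windows under peaks shared with wt. The CTCF letters CNAGNNGGC were in 22.1% (16.9 to 28.0), against 23.6% of all and 31.0% of windows under peaks shared with wt. The IRF letters GAAANNGAA were in 10.8% (7.13 to 15.6), against 8.13% of all and 7.57% of windows under peaks shared with wt, both inside the interval. The E-box letters CAGCTG were in 19.9% (15.0 to 25.7), against 15.6% of all and 13.6% of windows under peaks shared with wt. For all letters searched, the interval of the member windows covered the value of all promoters. A match describes letters only and is not a bound site.

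Members lay near 0 to 4 genes of each blood-lineage list. Within 10 kb of its body, a member lay at 1731 of 21883 protein-coding genes (7.91%), and the gene lists are read against that share. The lists also differed in dC peaks of any kind. These lay within 10 kb of 63.3% of all coding genes, but of 33.3% (stromal) to 100% (B-lineage) of the genes of a list. Erythroid and megakaryocyte genes had 91.7%. A share above 7.91% therefore does not show that members favoured a list. Of 26 B-lineage genes, 3 had a member (11.5%). At Ebf1 the member had folds of 12.8 with dC and 7.80 with dPLD, no F-GATA3 peak, and A-MuLV Brg1 folds of 7.94 with dC and 4.13 with wt. Ebf1 as a whole held similar numbers of fetal liver peaks with each form, 13 with dC, 13 with dPLD, 12 with F-GATA3 and 13 with wt, against 2 with the empty vector. Bach2, a repressor that supports B-cell commitment, had 6.54 with dC, 4.90 with dPLD and 4.96 with F-GATA3 and an A-MuLV Brg1 peak with dC only (4.58), and Bank1, a B-cell signalling scaffold, had 5.90 with dC and 4.94 with dPLD. Pax5 had no member, and Gata3 had no peak in any list.

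Of 12 erythroid and megakaryocyte genes, 4 had a member (33.3%), from 3 peaks. A single peak lay within reach of both adult β-globin genes Hbb-bt and Hbb-bs (5.99 with dC, 6.76 with dPLD). Tal1, a master factor of early blood, had 6.16 with dC and 6.65 with dPLD and an A-MuLV Brg1 peak with dC only (3.81), and Nfe2, a factor of globin and platelet genes, had 5.09 with dC and 4.29 with dPLD and an A-MuLV Brg1 peak with wt only (4.53). None of these was called with F-GATA3. T-lineage genes had 2 of 16 (12.5%), the receptor Notch3 (5.15 with dC, 5.17 with dPLD) and the interleukin 2 receptor chain Il2ra (4.89 with dC, 5.02 with dPLD). Myeloid and dendritic genes also had 2 of 16 (12.5%), Spi1, which encodes PU.1 (5.81 with dC, 4.86 with dPLD), and the repressor Gfi1 (5.40 with dC, 5.14 with dPLD), with an A-MuLV Brg1 peak with dC only (4.32). Progenitor genes had 2 of 12 (16.7%), the ETS factor Erg, with 2 neighbouring members under 1 dPLD and 1 F-GATA3 peak (6.41 and 4.79 with dC), and Sox4 (6.05 with dC). Mast cell and basophil genes had 1 of 10, the histidine decarboxylase gene Hdc (4.49 with dC, 6.36 with F-GATA3). Innate lymphoid and NK genes had 0 of 12 and stromal genes, listed because the cells grew on OP9 stroma, 0 of 12. With gene bodies extended by 50 kb, where 17.3% of all coding genes had a member, the counts were 7 of 26 (B-lineage), 4 of 16 (T-lineage), 5 of 16 (myeloid and dendritic), 5 of 12 (erythroid and megakaryocyte), 2 of 12 (progenitor), 1 of 10 (mast cell and basophil), 2 of 12 (innate lymphoid and NK) and 1 of 12 (stromal).

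The other lists had 1 to 3 genes with a member. Notch and Wnt signalling had 2 of 14 (14.3%; 4 at 50 kb), Wnt5b and Ctnnb1, which encodes β-catenin (4.83 with dC, 8.99 with dPLD). Axon guidance and adhesion had 2 of 18 (11.1%; 2 at 50 kb), Chl1 and Nrp1 (13.8 with dC, 5.17 with dPLD, 6.06 with F-GATA3). BAF and PBAF subunits had 1 of 16 (6.25%; 3 at 50 kb), Arid1b (5.33 with dC, 5.44 with dPLD), where EBF1 was called in A-MuLV cells with dC (9.97) and with wt (10.2) and Brg1 with wt only (4.83). Ubiquitously expressed genes had 3 of 14 (21.4%; 5 at 50 kb), the ribosomal gene Rplp0, the elongation factor Eef1a1 and B2m, of class I MHC, with dC folds of 7.07, 5.93 and 5.28. No list was tested, and each of these counts rests on 0 to 4 genes.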

How the data were processed

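The series holds 14 samples, of which 9 groups of 1 library have a peak list and 5 are inputs. MACS2 2.1.2, deepTools 3.3.1, SAMtools 1.9 and Bowtie2 2.3.3.1 are named in the submitters' processing notes, with the build GRCm38. Not given in the sources used here are the threshold, how duplicate reads were treated and which input served each library. Deposited by the authors are base positions of peaks and summits. The fold enrichment is the authors' ratio of ChIP pileup to local background at the summit, the −log10 p and −log10 q are the authors' values from the peak caller, and the deposited score follows the −log10 q. Columns were read as the narrowPeak format defines them. Depth is unknown, since reads were not analysed here.

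Overlaps, distances and exact Clopper-Pearson intervals at 95% were computed with Python 3.11.15, NumPy 2.4.6, pandas 2.3.3 and SciPy 1.17.1, and figures drawn with matplotlib 3.10.9. The overlap code was tested on simulated data. The members, gene lists and comparisons were chosen with earlier results of these data known. Named are the 10 members with the highest dC fold, the 5 highest with and without an F-GATA3 peak, the 5 highest by A-MuLV dC Brg1, dC EBF1 and wt EBF1 fold, the 5 genes nearest to the most members, up to 4 genes per list, and Ebf1 and Gata3. A member was named by the nearest coding gene interval, because the gene table of RefSeq (GRCm38.p6) holds no strand. All 175 gene list members, over 12 lists, were found in it. Letters were searched in RefSeq promoter windows in place of peak summits, since no genome was used here.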

Additional observations from a re-analysis of the deposited data

How the results depend on the processing

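The order of the shares, dC alone below members and members below peaks shared with wt, held in 8 of 8 alternatives for both A-MuLV Brg1 lists, in 7 of 7 for F-GATA3 and dC EBF1 and in 6 of 7 for wt EBF1. The split towards dC in A-MuLV cells was above that of all dC peaks in 8 of 8, with its interval above it in 5 of 8. The levels moved. With fetal liver lists cut to a −log10 q of at least 20, the shares of members were 23.0% (F-GATA3), 49.8% (A-MuLV Brg1 dC), 38.6% (A-MuLV Brg1 wt), 13.9% (EBF1 dC) and 4.53% (EBF1 wt). With the fetal liver lists held to 17687 peaks each there were 1232 members, at 40.0%, 47.0%, 35.8%, 15.0% and 4.55% in the same lists. Both settings also shorten the wt and empty lists, which admits regions with weaker wt peaks. An alternative chosen after seeing the data asked for a −log10 q of at least 20 with dC and dPLD alone. It left 134 members, at 38.1%, 41.0%, 17.2%, 13.4% and 4.48%, with a split of 88.1% towards dC. With summits within 200 bp the shares were 35.0% (F-GATA3), 28.4% (A-MuLV Brg1 dC) and 20.7% (A-MuLV Brg1 wt), and the split was 65.4%. With an A-MuLV −log10 q of at least 10 the Brg1 shares were 4.08% with dC and 1.91% with wt, and the split over all dC peaks reversed to 42.2%; the cause was not tested. An overlap of 50% of the shorter peak, no wt or empty-vector peak within 1 kb, and dPLD in place of dC intervals kept the member shares and the members' split inside their main intervals and the count within 1.5 times. With dPLD intervals the split over all peaks of the dPLD list was 59.4%. The class left out by the choice, dPLD peaks without dC, wt or empty, then had 13.8% with F-GATA3, 13.1% with A-MuLV Brg1 wt, 7.64% with EBF1 dC and 4.61% with EBF1 wt, against members at 24.6%, 14.0%, 7.76% and 2.03% in that order, which is the exception for wt EBF1. With gene bodies extended by 50 kb, members lay near 3787 coding genes (17.3%).

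No paired analysis was possible because each group had 1 library and no test was made. Depth is unknown, and the median −log10 q of members, 15.7, lay close to the floor of the lists, near 10.0.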

Other observations

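By chromosome, members made up 4.47% (chromosome 9) to 7.45% (chromosome 12) of the dC peaks of each autosome. The X chromosome, singled out after its value was seen, had 46 of 486 dC peaks (9.47%, 7.01 to 12.4), against 6.39% of all dC peaks. Members also covered hairpins of annotated microRNAs, found after the values were seen. The member over Mir3061 had folds of 9.71 with dC and 7.90 with dPLD and an A-MuLV Brg1 peak with dC (5.82) and not with wt. The member over Mir199b had folds of 5.83 with dC and 4.87 with dPLD and no peak with F-GATA3 or in A-MuLV cells. The member over Mir6388, inside Igh, had folds of 4.54 with dC and 4.53 with dPLD, and in A-MuLV cells Brg1 peaks of 7.72 with dC and 7.94 with wt and an EBF1 peak of 6.53 with dC.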
